A study of Homo sapiens with 4 samples.

Results

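The SR protein and hnRNP genes are the subject of this report. They were taken as the protein-coding genes whose GENCODE symbol is SRSF followed by a number, or begins with HNRNP, which gave 12 SR protein genes and 25 hnRNP genes, 37 of the 58735 gene identifiers in the data. The cells, HCT116, are an established line from a human colorectal carcinoma. Their RNA was sequenced 48 h after they received either a control siRNA (2 libraries) or siRNA against KIF26B, a kinesin family gene (2 libraries), a comparison that asks which transcripts differ once KIF26B is depleted. The study used more than 1 siRNA against KIF26B, and which of them went into which library was not given in the sources used here. The value columns of replicates 1 and 2 of KIF26B siRNA are named K_KD1_2 and K_KD2, and the meaning of these names was not given. The labels number the libraries of each group as replicates 1 and 2 and do not say that they came from separate cultures, so the p-values below measure only the spread between these libraries.

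SR proteins carry 1 or more RNA recognition motifs and a domain rich in arginine and serine, and they bind exonic sequences and help the spliceosome to define exons. The hnRNPs are abundant nuclear RNA-binding proteins of several unrelated structures. Many of them package nascent transcripts, repress or activate splice sites and accompany mRNA to the cytoplasm, and members of both families limit their own expression by steering their pre-mRNA into transcripts that are degraded.

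The library scaling factors lay between 18068934 and 24673739 fragments, and mitochondrial genes held 6.83% and 6.89% of that number in the control siRNA libraries against 9.68% and 8.18% in the KIF26B siRNA libraries. KIF26B itself was near the limit of detection, with 31 and 73 reads in the controls, 43 in the library labelled KIF26B siRNA replicate 1 and 8 in the library labelled replicate 2. These counts correspond to 0.110, 0.205, 0.140 and 0.0307 FPKM (fragments scaled to the length of the exons and the size of the library), so replicate 1 lay between the controls and its label was not borne out by this gene. Libraries are called by their labels below, and the counts and medians over the members and the medians of the related lists are also given without replicate 1. The 5 epithelial markers were all above the expression filter, led by KRT19 at 842 to 951 FPKM, whereas none of the 4 leukocyte markers and neither of the 2 endothelial markers found was. Of 4 fibroblast markers, 1 was above the filter (COL1A1, at 4.74 to 8.69 FPKM). COL1A2 and COL3A1 were at or near 0, and PDGFRB was also below the filter. Of the 5 epithelial markers, 3 lay below both controls in both KIF26B siRNA libraries, with KRT18 lowest at a log2 difference of -0.51, and 1 (KRT19, 0.14) lay above both. The part of these shifts and of the mitochondrial share in the results below was not tested.

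HNRNPA1 and its near-identical copies HNRNPA1L2 and HNRNPA1L3 held the largest differences in either direction among the hnRNP genes, so their likeness is described first, from the annotated transcripts (GENCODE, GRCh37 lift). Over the whole coding sequence of 960 bases, HNRNPA1L2 matched HNRNPA1 at 98.4% of positions (15 differences) and HNRNPA1L3 at 99.4% (6 differences). The longest run without a difference was 174 bases for HNRNPA1L2 and 373 bases for HNRNPA1L3. Of all 150-base windows of the copies' transcripts, the length of the sequenced reads, 13.6% for HNRNPA1L2 and 21.1% for HNRNPA1L3 also occurred in a transcript of HNRNPA1. How reads that fit more than 1 of these genes were assigned was not given in the sources used here, so the values of the 3 genes are uncertain where they share sequence.

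The members were among the more strongly expressed genes of HCT116 cells. Of the 37 members, 33 (11 SR protein and 22 hnRNP genes) averaged 1 FPKM or more over the 4 libraries and were tested, out of 14523 genes tested in all. The control mean of the SR protein genes ran from 7.88 FPKM (SRSF8) to 60.5 FPKM (SRSF9), with a median of 27.9 FPKM. The hnRNP genes ran from 4.85 FPKM (HNRNPA1L2) to 249.9 FPKM (HNRNPA1), with a median of 38.7 FPKM, while the median of all genes tested was 5.63 FPKM. HNRNPA1, which shuttles between nucleus and cytoplasm and represses many exons, was followed by HNRNPK at 147.8 FPKM, HNRNPA2B1 at 142.3 FPKM and HNRNPAB at 133.0 FPKM.

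**Figure D1:**
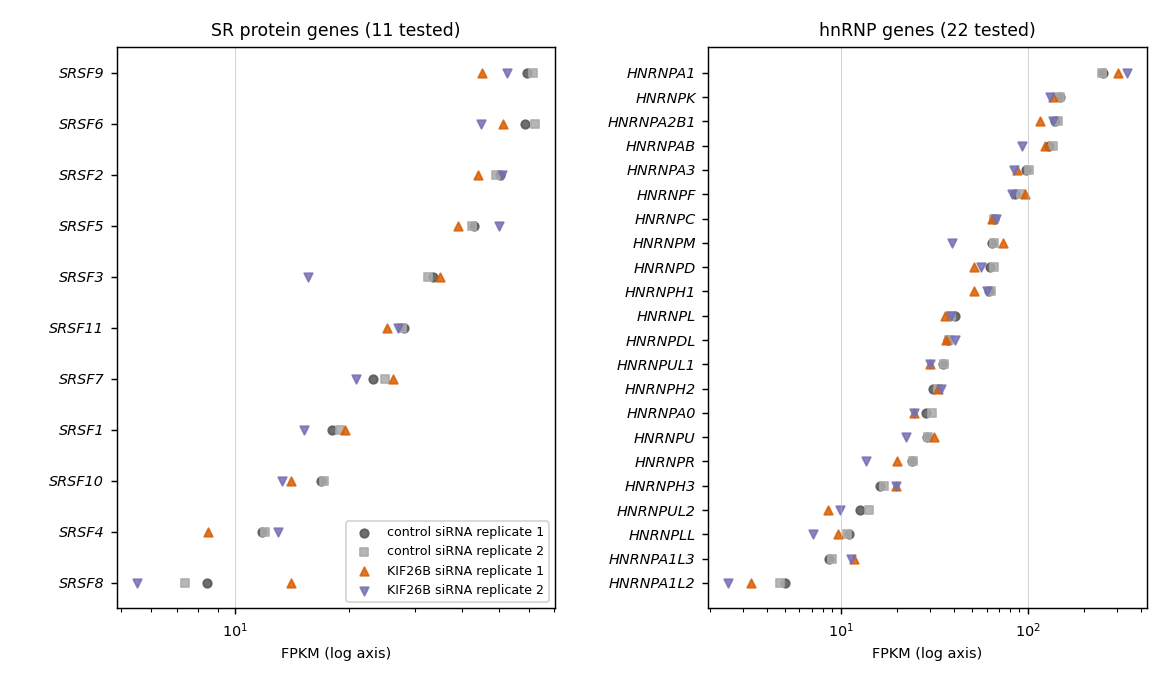
FPKM of the 11 SR protein genes and 22 hnRNP genes tested, on a log axis, with 1 point per library and genes ordered by the mean of both control siRNA libraries. The control points lie close together for every gene, while the KIF26B siRNA points separate widely for SRSF3, SRSF8 and HNRNPM, and HNRNPA1 stands highest at 249.4 to 336.7 FPKM.

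The 4 remaining members were not tested. SRSF12, which is expressed in few tissues, had 1 and 6 reads in the controls and 3 and 0 reads with KIF26B siRNA. The read-through gene HNRNPUL2-BSCL2 had 0, 3, 3 and 2 reads in the same order. Its span overlaps HNRNPUL2 over 14755 bases and BSCL2 over 19571 bases on the same strand. How reads of bases shared by these genes were assigned was not given in the sources used here, so these counts and those of HNRNPUL2 carry that limit. HNRNPCL1 and HNRNPCL2, intronless relatives of HNRNPC, had 0 reads in all 4 libraries, and with a limit of 3 reads for a count of 0 this depth would not have shown a lower level.

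No member passed an adjusted p of 0.05 in the comparison of KIF26B siRNA with control siRNA, by limma on log2(FPKM + 1) or by limma-voom on reads recovered from the FPKM, and no gene of the whole table did so in either fit (0.0% of 14523 and 0.0% of 14475 genes). The smallest adjusted p of a member in limma was 0.255. The thresholds named in the study's methods, an unadjusted P below 0.05 together with a log2 fold change beyond 1, were met by 0 members and by 1.42% of all genes tested. At an unadjusted P below 0.05 alone, 2 hnRNP genes were lower (HNRNPA1L2 and HNRNPUL2) and 2 were higher (HNRNPA1 and HNRNPA1L3), and no SR protein gene was in either group. Over all genes tested these shares were 8.68% lower and 7.74% higher, so the 2 and 2 of 33 members lay near the background.

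Most members nevertheless lay slightly lower with KIF26B siRNA. The log2 difference, the mean of the KIF26B siRNA libraries minus the mean of the control siRNA libraries on the log2(FPKM + 1) scale, had a median of -0.10 over the SR protein genes and -0.17 over the hnRNP genes, beside -0.01 over all genes tested. In 17 of the 33 members (51.5%) neither KIF26B siRNA library reached either control library, which held for 27.8% of all genes tested and for 31.9% of the genes averaging 10 FPKM or more, where 30 of the members lie. The 17 comprised 4 SR protein genes and 13 hnRNP genes. Both libraries were above both controls in 3 members (9.09%), all hnRNP genes, against 24.9% of all genes tested and 26.7% of those averaging 10 FPKM or more. Members were not independent of one another and were not chosen at random, and no test was run over the list.

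Without the library labelled replicate 1, the other KIF26B siRNA library was below both controls in 24 of the 33 members and above both in 9, beside 44.8% and 44.0% of all genes tested, with medians of -0.20 for the SR protein genes and -0.19 for the hnRNP genes. Without replicate 2 these numbers were 22 and 10, beside 45.8% and 41.1% of all genes tested, with medians of -0.14 and -0.13. The summed FPKM of the SR protein genes was 351.2 and 356.4 in the controls and 322.1 and 309.1 in the KIF26B siRNA libraries. The summed FPKM of the hnRNP genes was 1384 and 1417 in the controls and 1367 and 1338 in the KIF26B siRNA libraries. Neither sum overlapped between the groups, although the nearest hnRNP sums were close. Such non-overlap in the lower direction held for 27.8% of all genes tested, taken singly. That share is not a background for sums over many genes, and none was made for such sums. The FPKM of all genes together summed to 309563 and 313857 in the controls and 341050 and 341779 in the KIF26B siRNA libraries.

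Among the SR protein genes, the 4 whose libraries did not overlap between the groups were SRSF6, SRSF9, SRSF10 and SRSF11. SRSF6, a regulator of alternative exons, stood at 58.5 and 62.4 FPKM in the controls and 51.3 and 44.8 FPKM with KIF26B siRNA. Its log2 difference was -0.33 (SE 0.13, limma adjusted p = 0.328). SRSF10, which acts as a splicing repressor when it is dephosphorylated, stood at 16.9 and 17.2 FPKM in the controls and 14.1 and 13.3 FPKM with KIF26B siRNA. Both KIF26B siRNA libraries lay below both controls by a similar step, and the log2 difference was -0.30 (SE 0.11, limma adjusted p = 0.312), with the smallest unadjusted P among the SR protein genes (0.056).

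SRSF9 stood at 59.3 and 61.7 FPKM in the controls and 45.0 and 52.7 FPKM with KIF26B siRNA, a log2 difference of -0.31 (SE 0.13, limma adjusted p = 0.355). DYNLL1, a dynein light chain gene that overlaps the SRSF9 locus on the opposite strand, was also lower, at 43.8 and 47.0 FPKM in the controls and 32.7 and 31.6 FPKM with KIF26B siRNA. GATC, also opposite, stood at 5.67 and 5.41 FPKM in the controls and 5.27 and 4.26 FPKM with KIF26B siRNA. NRAV, on the same strand as SRSF9, stood at 3.08 and 3.28 FPKM in the controls and 7.41 and 2.97 FPKM with KIF26B siRNA. Whether the counting used the strand was not given in the sources used here, so reads from exon bases shared by genes on opposite strands may not be told apart. Overlaps here are of whole gene spans, introns included, and the overlap of exons was not measured. SRSF11 differed least of the 4, with 28.0 and 27.7 FPKM in the controls and 25.2 and 27.0 FPKM with KIF26B siRNA. In limma-voom, SRSF6 and SRSF10 were the 2 SR protein genes lower at an unadjusted P below 0.05, a call made for 10.1% of all genes in that direction. Among the hnRNP genes that fit had 4 lower (HNRNPA1L2, HNRNPR, HNRNPUL2 and HNRNPA0) and 2 higher (HNRNPA1 and HNRNPA1L3), and 7.83% of all genes were higher.

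SRSF3 showed the widest departure in a single library. This gene encodes the smallest canonical SR protein, which also promotes export of mRNA and regulates its own splicing through a cassette exon. It stood at 33.5 and 32.5 FPKM in the controls, 34.9 FPKM in KIF26B siRNA replicate 1 and 15.6 FPKM in replicate 2, from 4684, 5706, 5313 and 2002 reads. Replicate 1 was above both controls and replicate 2 was far below them, so the groups overlapped. The log2 difference of -0.48 had an SE of 0.41 (limma adjusted p = 0.596) and combined 0.08 in replicate 1 with -1.04 in replicate 2.

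A cassette exon of SRSF3 that brings a premature stop is shown because such exons send SRSF3 transcripts to nonsense-mediated decay. The annotation holds 2 SRSF3 transcripts of that kind, each with its own exon and stop, and the other exon, of 98 bases at chr6:36566206-36566303, is not printed. The exon shown is exon 4 of its transcript, at chr6:36567598-36568053 on the plus strand of GRCh37, within the SRSF3 gene at chr6:36562130-36573377. The exon has 456 bases, and the first 34 of them run to the stop codon in frame, which is in capitals.
SRSF3 exon 4, first bases: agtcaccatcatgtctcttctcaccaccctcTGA
The deposited FPKM are 1 value per gene, so the share of SRSF3 transcripts that carried either exon was not measured here. Transcripts annotated for nonsense-mediated decay exist for all 12 SR protein genes and 15 of the 25 hnRNP genes. Among the members tested these are 11 of 11 and 14 of 22, beside 48.0% of the protein-coding genes tested. Transcripts with a retained intron are annotated for 9 of the 11 SR protein genes and 15 of the 22 hnRNP genes tested, beside 61.8% of the protein-coding genes tested.

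The other SR protein genes overlapped between the groups. SRSF8, a retrocopy related to SRSF2, stood at 8.41 and 7.36 FPKM in the controls, 14.1 FPKM in KIF26B siRNA replicate 1 and 5.50 FPKM in replicate 2. Its KIF26B siRNA libraries thus lay on opposite sides of both controls, at log2 differences of 0.77 and -0.45. None of its 150-base windows occurred in a transcript of SRSF2, so its counts are not shared with that gene over a whole read. SRSF4 had the reverse order, with 11.8 and 12.0 FPKM in the controls, 8.47 FPKM in replicate 1 and 13.0 FPKM in replicate 2. SRSF1, the prototype of the family, stood at 18.1 and 19.0 FPKM in the controls and at 19.5 and 15.2 FPKM with KIF26B siRNA. SRSF7, a close relative of SRSF3, followed the same order, with 23.2 and 24.9 FPKM in the controls and 26.3 and 20.9 FPKM with KIF26B siRNA. SRSF2 and SRSF5 were lower than the controls in replicate 1 and higher in replicate 2, with log2 differences of -0.07 and 0.05.

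The KIF26B siRNA libraries differed from each other by more than the controls did. They lay more than 0.5 apart on the log2(FPKM + 1) scale for 5 members (SRSF3, SRSF8, SRSF4, HNRNPM and HNRNPR), beside 25.9% of all genes tested, whereas the controls lay that far apart for 0 members and for 6.0% of all genes. Replicate 1 was more than 0.5 below the control mean only for HNRNPUL2 among the members (10.7% of all genes) and more than 0.5 above it only for SRSF8 (8.67% of all genes). Replicate 2 was more than 0.5 below it for 6 members, namely SRSF3, HNRNPA1L2, HNRNPR, HNRNPM, HNRNPLL and HNRNPAB (11.1% of all genes), and more than 0.5 above it for none (13.1% of all genes).

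**Figure D2:**
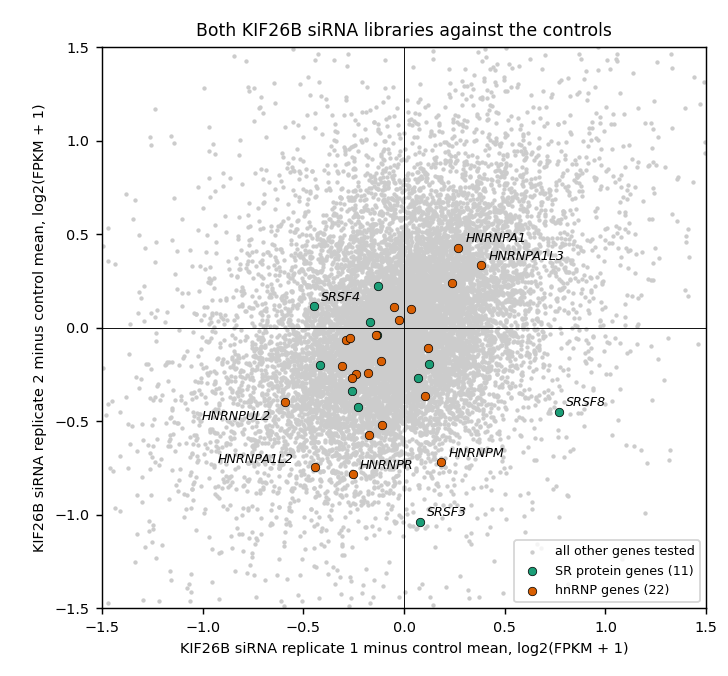
Difference of KIF26B siRNA replicate 1 (horizontal) and replicate 2 (vertical) from the control mean on the log2(FPKM + 1) scale, for SR protein genes (green), hnRNP genes (orange) and the other genes tested (grey, with 226 genes beyond the axes). Both axes share the same control mean, which alone draws the points toward the diagonal. SRSF3, HNRNPM and SRSF8 lie in the lower right, where the libraries differed in sign, and HNRNPA1, HNRNPA1L3 and HNRNPH3 in the upper right.

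Among the hnRNP A/B genes, HNRNPA1 was higher and most of its relatives were lower. HNRNPA1 stood at 250.3 and 249.4 FPKM in the controls and at 301.4 and 336.7 FPKM with KIF26B siRNA, both above both controls. The log2 difference was 0.35 (SE 0.12, unadjusted P = 0.045, limma adjusted p = 0.297). HNRNPA1L3 followed, with 8.61 and 8.97 FPKM in the controls and 11.8 and 11.3 FPKM with KIF26B siRNA, a log2 difference of 0.36 (SE 0.11, limma adjusted p = 0.276). It is the copy that shares most sequence with HNRNPA1, so reads of these genes cannot be fully told apart. With the replicate number as a block, neither gene kept an unadjusted P below 0.05 (0.108 for HNRNPA1 and 0.097 for HNRNPA1L3).

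HNRNPA1L2, a retrocopy of HNRNPA1 at chr13:53216566-53217908 (GRCh37, plus strand), went the other way. It stood at 5.01 and 4.70 FPKM in the controls and 3.31 and 2.50 FPKM with KIF26B siRNA, from 135, 159, 97 and 62 reads. Both KIF26B siRNA libraries lay below both controls, and the log2 difference of -0.59 (SE 0.15, limma adjusted p = 0.255) was the largest of any member. On reads, limma-voom gave -0.74 (SE 0.25, unadjusted P = 0.034, adjusted p = 0.245).

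HNRNPA2B1, the partner of HNRNPA1 in the core hnRNP particle, stood at 140.1 and 144.5 FPKM in the controls and 116.4 and 135.8 FPKM with KIF26B siRNA. HNRNPA3 stood at 97.7 and 100.8 FPKM in the controls and 87.7 and 83.9 FPKM with KIF26B siRNA. HNRNPA0, an intronless gene whose product binds AU-rich elements, stood at 28.6 and 30.7 FPKM in the controls and 24.6 and 24.5 FPKM with KIF26B siRNA. None of the 3 overlapped between the groups, with log2 differences of -0.18, -0.21 and -0.26. HNRNPAB was also lower in both libraries, mostly in replicate 2, at 129.8 and 136.2 FPKM in the controls and 123.1 and 92.6 FPKM with KIF26B siRNA. HNRNPA2B1 is overlapped on the opposite strand by NFE2L3 over 15987 bases of the locus and by CBX3 over 368 bases, and HNRNPA3 by NFE2L2. NFE2L3 stood at 14.6 and 16.3 FPKM in the controls and 12.6 and 9.01 FPKM with KIF26B siRNA. CBX3 stood at 71.6 and 70.6 FPKM in the controls and 51.5 and 56.3 FPKM with KIF26B siRNA. NFE2L2 stood at 15.6 and 14.4 FPKM in the controls and 10.0 and 11.9 FPKM with KIF26B siRNA. PHYKPL, opposite HNRNPAB, was higher where HNRNPAB was lower, at 4.04 and 4.28 FPKM in the controls and 5.54 and 5.51 FPKM with KIF26B siRNA.

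HNRNPD, also called AUF1 for its binding to AU-rich elements that shorten the life of mRNA, stood at 62.8 and 65.8 FPKM in the controls and 51.7 and 55.8 FPKM with KIF26B siRNA. Its log2 difference was -0.26 (SE 0.12, limma adjusted p = 0.367), without overlap of the groups. Its relative HNRNPDL overlapped, with 37.4 and 37.8 FPKM in the controls and 36.2 and 40.6 FPKM with KIF26B siRNA. HNRNPC, which binds uridine tracts and forms a tetramer in the hnRNP particle, was nearly level, with 65.8 and 65.5 FPKM in the controls and 64.4 and 67.5 FPKM with KIF26B siRNA. The difference of HNRNPC was 0.01 with an SE of 0.11.

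The scaffold and chromatin-associated members of the U group were mostly lower. HNRNPUL2 at chr11:62480102-62494929 (GRCh37, minus strand) stood at 12.7 and 14.1 FPKM in the controls and 8.54 and 9.93 FPKM with KIF26B siRNA. The groups did not overlap, and the log2 difference was -0.49 (SE 0.14, unadjusted P = 0.023, limma adjusted p = 0.267). HNRNPUL1 stood at 35.3 and 35.7 FPKM in the controls and 29.9 and 29.8 FPKM with KIF26B siRNA, also without overlap, a log2 difference of -0.24 (SE 0.11, limma adjusted p = 0.357). TGFB1, which overlaps HNRNPUL1 on the opposite strand, stood at 17.5 and 26.5 FPKM with KIF26B siRNA, 1 library below and 1 above the controls at 20.7 and 20.9 FPKM. HNRNPU, which binds chromatin-associated RNA and the nuclear scaffold, overlapped between the groups, with 28.8 and 29.2 FPKM in the controls, 31.2 FPKM in replicate 1 and 22.3 FPKM in replicate 2.

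HNRNPR, HNRNPLL and HNRNPM were lowest in replicate 2. HNRNPR, a relative of the RNA-binding protein SYNCRIP, stood at 23.9 and 24.2 FPKM in the controls, 20.0 FPKM in replicate 1 and 13.6 FPKM in replicate 2. Both libraries lay below both controls, and the log2 difference was -0.52 (SE 0.22, limma adjusted p = 0.338). HNRNPLL, known for its part in the alternative splicing of CD45 in lymphocytes, stood at 11.1 and 10.8 FPKM in the controls and 9.60 and 7.05 FPKM with KIF26B siRNA, again without overlap. HNRNPM, a splicing regulator linked to epithelial and mesenchymal isoforms, stood at 64.0 and 65.7 FPKM in the controls, 73.8 FPKM in replicate 1 and 39.0 FPKM in replicate 2. As for SRSF3, replicate 1 was above and replicate 2 below both controls, and the log2 difference of -0.27 had an SE of 0.34 (limma adjusted p = 0.718).

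The hnRNP F/H genes, whose products bind runs of guanines, did not share a direction. HNRNPH3 stood at 16.1 and 17.0 FPKM in the controls and 19.7 and 19.8 FPKM with KIF26B siRNA, both above both controls, a log2 difference of 0.24 (SE 0.11, limma adjusted p = 0.371). HNRNPH1 was lower in both libraries, with 61.8 and 63.1 FPKM in the controls and 51.6 and 60.1 FPKM with KIF26B siRNA. HNRNPF and HNRNPH2 overlapped between the groups, with log2 differences of 0.01 and 0.07. HNRNPK and HNRNPL, binders of C-rich and CA-rich RNA, were lower in both libraries by small steps. HNRNPK stood at 147.4 and 148.2 FPKM in the controls and 136.2 and 130.7 FPKM with KIF26B siRNA, and HNRNPL at 40.5 and 38.9 FPKM in the controls and 35.9 and 38.7 FPKM with KIF26B siRNA. By gene spans, 4 members (SRSF9, HNRNPA1, HNRNPL and HNRNPUL2-BSCL2) are overlapped on the same strand by a gene averaging 1 FPKM or more. The noncoding gene over HNRNPA1 stood at 1.71 and 1.79 FPKM in the controls and 0.908 and 1.76 FPKM with KIF26B siRNA. The noncoding gene over HNRNPL stood at 3.62 and 3.95 FPKM in the controls and 3.61 and 2.47 FPKM with KIF26B siRNA.

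Genes that act with these families were counted in the same fit, and none of them passed an adjusted p of 0.05 in limma. The counts below stand beside 8.68% of all genes tested lower and 7.74% higher at an unadjusted P below 0.05, 27.8% below and 24.9% above both controls in both libraries, and a median of -0.01. A list called hnRNPs under other symbols held 25 tested genes. It also took in other RNA-binding proteins, such as ILF2 and ELAVL1, so its counts are not of hnRNPs alone. Of the 25, 3 were lower at an unadjusted P below 0.05 and 0 higher, with a median log2 difference of -0.13. In 13 of the 25 both KIF26B siRNA libraries lay below both controls, and in 1 they lay above. PTBP3, ILF2 and ELAVL1 had log2 differences of -0.35, -0.35 and -0.30, each without overlap of the groups, and PTBP3 and ILF2 were among the 3.

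Of 30 SR-related proteins, 1 was lower and 0 higher at an unadjusted P below 0.05, with 12 below and 8 above both controls and a median of -0.11. The gene was SRRM1, a coactivator that bridges exon-bound SR proteins and the spliceosome, at 29.8 and 28.8 FPKM in the controls and 18.5 and 23.4 FPKM with KIF26B siRNA (log2 difference -0.47, SE 0.16, limma adjusted p = 0.288). Of 8 tested kinases and import factors of SR proteins, 0 passed an unadjusted P of 0.05 in limma, with a median of -0.06, and 1 (PRPF4B) lay below and 2 above both controls. SRPK1, which phosphorylates SR proteins in the cytoplasm, stood at 15.8 and 17.4 FPKM in the controls and 16.3 and 12.8 FPKM with KIF26B siRNA, and the groups overlapped.

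Of 58 snRNP and core spliceosome genes, 8 were lower and 1 higher at an unadjusted P below 0.05, with a median of -0.12 and with 26 below and 7 above both controls. The smallest unadjusted P belonged to LSM3 and SNRPG, subunits of the Sm and Sm-like rings of spliceosomal snRNPs, with log2 differences of -0.50 and -0.45, and then to LSM6 at -0.39 and the helicase DHX16 at -0.35. Other genes of the list had larger differences with a larger P. Of 15 genes of nonsense-mediated decay and the exon junction complex, 2 were lower (EIF4A3 and MAGOH, core subunits of that complex, at -0.35 and -0.34) and 0 higher. Their median was -0.08, with 6 below and 1 above both controls. The 8 genes for nuclear import and arginine methylation of hnRNPs had a median of 0.10, with 1 below and 3 above both controls and 0 at an unadjusted P below 0.05 in limma in either direction. Among them PRMT1, the main arginine methyltransferase, stood at 54.3 and 58.0 FPKM in the controls and 63.6 and 77.2 FPKM with KIF26B siRNA. From replicate 2 alone, without the library labelled replicate 1, the medians were -0.17 for the hnRNPs under other symbols, -0.019 for the SR-related proteins, 0.024 for the kinases and import factors, -0.15 for the snRNP and core spliceosome genes, -0.074 for nonsense-mediated decay and the exon junction complex and 0.046 for hnRNP import and methylation, so the list of kinases changed sign.

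**Figure D3:**
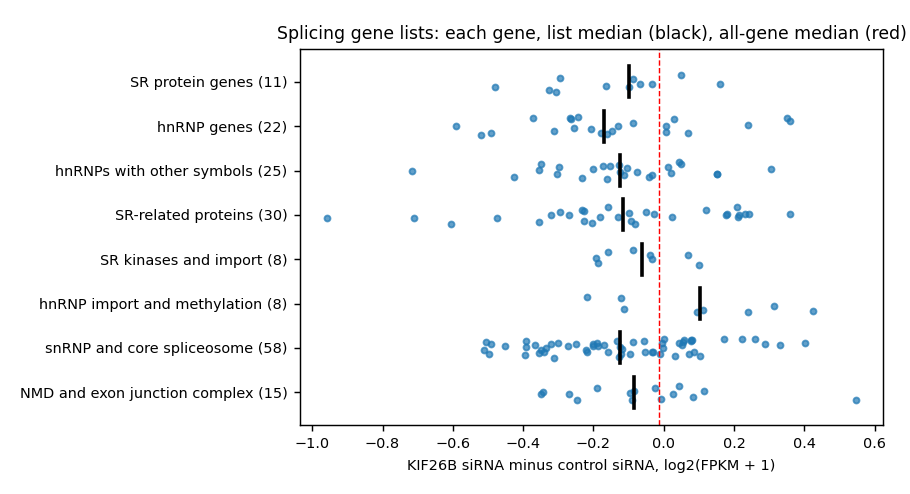
Log2 difference, KIF26B siRNA minus control siRNA on the log2(FPKM + 1) scale, of each tested gene in 8 lists, with the number tested in brackets, the list median as a black bar and the median of all genes as a red dashed line. The medians run from -0.17 for the hnRNP genes to 0.10 for hnRNP import and methylation, and no point passed an adjusted p of 0.05 in limma.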

How the data were processed

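RNA-seq of 4 HCT116 libraries was analysed. The authors purified poly(A) mRNA and sequenced paired-end reads of about 150 bases. The submitters' processing notes name HISAT2 2.0.5, featureCounts 1.5.0-p3 and the build hg38, while the study's methods name hg19, and the annotation was not given in the sources used here. The deposited values are FPKM, 1 per gene and library, a unit read from the values. Identifiers were matched to GENCODE v44lift37 (GRCh37), which gave 56513 of 58735 a symbol. Coordinates and sequences are from that annotation.

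Genes whose mean over the libraries reached 1 FPKM were compared with limma 3.58.1 (R 4.3.3) on log2(FPKM + 1), with Benjamini-Hochberg adjustment over all genes tested. Fold changes on this scale understate those of low genes. The study's thresholds were applied to the limma P values. Whole reads (tolerance 0.01 reads) were recovered for 99.7% of the 34638 genes above 0, by searching each gene's length for 1 at which all 4 libraries gave whole numbers. Recovered totals depend on the lengths chosen, so the scaling factors stand for depth. After each value was moved by up to 1%, 4 of 1000 genes still gave whole numbers. Limits for a count of 0 are 3 reads and cover counting error only.

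Members and gene lists were chosen with earlier results of these data known. Any member could be named, with KIF26B, the cell type markers and up to 4 tested genes of each list with the smallest unadjusted P. Overlapping genes were named for their position. Tables were handled in Python 3.11.15 with pandas 2.3.3 and numpy 2.4.6, and plots were drawn with matplotlib 3.10.9. The scripts were tested on simulated data. The alternatives were a replicate block, a pseudocount of 0.1, other filters, median-of-ratios scaling, limma-voom on recovered reads and leaving out each library. Some items are not reported here.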

Additional observations from a re-analysis of the deposited data

How the results depend on the processing

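With 2 libraries in each group an exact permutation test cannot go below p = 0.333, and limma had 2 residual degrees of freedom. Of the 33 members tested, 21 kept their direction under all 10 alternatives (17 lower, 4 higher). That count was not made over all genes. As a simpler measure, both KIF26B siRNA libraries lay below the control mean in 17 members and above it in 4. Over the 14523 genes tested these numbers were 4828 and 4410, so the members lay more often below and less often above. The replicate numbers were not shown to pair the libraries (correlation of the replicate differences between groups -0.003), and the replicate block left 0 hnRNP genes higher at an unadjusted P below 0.05, where the unblocked fit had 2, and 2 lower. The count of hnRNP genes higher was 1 with a pseudocount of 0.1. Without a filter 2 SR protein genes and 6 hnRNP genes were lower, among 2186 of the 34638 genes then fitted. With the filter 0 and 2 were lower, among 1261 of 14523 genes, and limma-voom gave 2 and 4 among 1459 of 14475. With at least 1 FPKM in every library 1 SR protein gene and 2 hnRNP genes were lower, among 1255 of all genes. The cause of these shifts was not tested.

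Leaving out 1 library at a time, the count of all genes at an adjusted p below 0.05 in limma ran from 0 to 2507. The highest count arose without KIF26B siRNA replicate 1, a fit that assumes the lone library to vary like the controls. Calls of single members are therefore not read from it. The log2 differences of the members then ran from -1.04 (SRSF3) to 0.43 (HNRNPA1). In the same fits, the counts at an unadjusted P below 0.05 ran from 0 to 5 (SR lower), 0 to 1 (SR higher), 0 to 9 (hnRNP lower) and 0 to 2 (hnRNP higher), while those of all genes ran from 234 to 3435 lower and from 265 to 3326 higher, the highest of both without replicate 1. The counts of hnRNP genes fell to 0 without either control. Medians ran from -0.20 to -0.10 for the SR protein genes and from -0.19 to -0.13 for the hnRNP genes, and 0 to 1 members met the study's thresholds (SRSF3, without replicate 1). Members below all controls numbered 17 to 24 and above all controls 3 to 10. The log2 difference changed sign in these fits for 12 members, with ranges of -0.27 to 0.071 (SRSF1), -0.17 to 0.033 (SRSF2), -1.04 to 0.080 (SRSF3), -0.45 to 0.12 (SRSF4), -0.13 to 0.23 (SRSF5), -0.19 to 0.12 (SRSF7), -0.45 to 0.77 (SRSF8), -0.11 to 0.12 (HNRNPF), -0.027 to 0.039 (HNRNPC), -0.72 to 0.18 (HNRNPM), -0.052 to 0.11 (HNRNPDL) and -0.36 to 0.11 (HNRNPU).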

Other observations

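The annotation holds 136 pseudogenes named for SR protein or hnRNP genes, of which 61 had reads in at least 1 library. The 74 named for HNRNPA1 held 325 and 403 reads in the controls and 382 and 326 with KIF26B siRNA, or 1.05% to 1.30% of the reads of HNRNPA1 itself. HNRNPA1P10, with the most reads of these, stood at 7.47 and 7.84 FPKM in the controls and 8.61 and 9.26 FPKM with KIF26B siRNA, both above both controls as for HNRNPA1. The pseudogene HNRNPCP2 stood at 9.89 and 12.3 FPKM in the controls and 10.1 and 9.74 FPKM with KIF26B siRNA, and the groups overlapped. Both pseudogenes were chosen after their values were seen.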
